A study of Mus musculus with 6 samples.

Results

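The oxidative-stress response genes read here were Hmox1, Nqo1, Gclm, Gclc, Txnrd1, Srxn1, Slc7a11, Prdx1 and Mafg, 9 genes chosen by symbol. Every probe set whose platform annotation gives exactly 1 of these symbols was taken, which gave 15 of the 22690 probe sets on the array. These read 8 of the 9 genes, out of 12393 genes that the array reads with 1 symbol. Each of the 5 probe sets that carry the Prdx1 symbol also carries Gm21399, so no signal was read for Prdx1. All 15 probe sets were above the signal floor of 53.5 on at least 2 arrays and entered the fit.

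Most of these genes belong to the antioxidant programme of the transcription factor NRF2 (gene Nfe2l2). KEAP1 holds NRF2 for degradation until oxidants or electrophiles modify KEAP1, after which NRF2 enters the nucleus, pairs with a small MAF protein and binds antioxidant response elements, while BACH1 occupies the same elements as a repressor. Hmox1 also answers to haem, through BACH1, and to inflammatory signals. In mouse dendritic cells NRF2 is known to limit oxidant levels and the display of costimulatory receptors.

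The study measured RNA from mouse dendritic cells grown in culture, on 6 Affymetrix MOE430A arrays with 1 array per group. The 6 groups were AdIkBa-SR+TNFa, AdIkBa-SR, AdOVA+TNFa, AdOVA, TNFa and untreated. All cells came from bone marrow of a 13-week-old female CAR-transgenic mouse. They were expanded for 7 days and differentiated for another 7 days with 250 U/ml GM-CSF. The AdIkBa-SR and AdOVA groups received the adenovirus of that name at 1500 particles per cell for 2 h, followed by 18 h of culture. AdIkBa-SR is named for IkBa, the protein that holds NF-kB in the cytoplasm, and AdOVA was the virus it was set against. The TNFa groups then received 50 ng/ml of the cytokine TNFa for 4 h. The labels record 1 mouse and no mock transduction, so the comparison of AdOVA with no virus covers the virus and the handling together. Whether a probe set of Nfkbia reads the viral IkBa gene is not known, so delivery was not checked. The series title places the comparisons in the search for NF-kB target genes.

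Values are MAS5 signals per probe set. Differences were tested with limma, fitted to all 14906 measured probe sets with 1 residual degree of freedom, and p-values were adjusted over all of them. Rose and fell are written where the adjusted p was under 0.05. With 1 array per group, these p-values rest on how closely the TNFa responses with AdOVA and without virus agree, and they do not cover separate cultures.

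The arrays differed in ways that the groups do not define. Median signals ran between 74.4 and 88.5 and were highest on the AdOVA+TNFa array, which also had an 18S ribosomal RNA signal of 2601.1, against 120.3 to 537.0 on the others. The AdIkBa-SR+TNFa, AdIkBa-SR and AdOVA+TNFa arrays shared a hybridization date in their headers, named fluidics round 2 here. The other 3 shared another date, named round 1. The AdIkBa-SR array had another wash protocol. The dendritic cell marker list was above the floor for 9 to 11 of its 11 genes on every array. Of its 10 measured genes 1 rose and 1 fell with AdOVA, where 4.03% of all measured probe sets were called higher and 3.86% lower. The median log2 difference was 0.03, against 0.07 for all genes. Itgax (CD11c) had 329 and 247 with AdOVA (with and without TNFa), against 755 and 699 without virus, and fell (limma adjusted p = 0.0022). The migration receptor gene Ccr7 had 516 and 402 with AdOVA, against 177 and 195 without virus, and rose (limma adjusted p = 0.011). Both calls were lost with no filter on low signals, without the AdOVA+TNFa array and in the fit blocked by fluidics round, where 0 of all probe sets were called. Of 8 mast cell and basophil markers, 5 to 7 were above the floor on each array. With AdOVA 1 of the 8 rose (Hdc, log2 1.83, limma adjusted p = 0.0014) and 1 fell (Cpa3, log2 -0.87, limma adjusted p = 0.041). Their median was -0.24, against 0.07 for all genes, and these calls were lost in the same fits. Among 7 T, B and NK cell markers, Cd3e, Cd3g, Cd3d and Nkg7 were under the floor on all 6 arrays, while the B cell marker Ms4a1 was above it on 5 arrays, at 60.4 to 87.6, and Cd79a on 2, at 69.5 and 55.7. These are mixed RNA samples, so fewer cells of a type and less RNA per cell cannot be told apart.

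The sequence around the annotated start of each gene was searched for 3 motifs. RefSeq promoter windows (GRCm38.p6, 250 bases before to 50 after the annotated start) were found for 7 of the 9 genes, as 9 windows, while Hmox1 and Gclc were not matched. The core of the antioxidant response element, TGACNNNGC on either strand, occurred in 5 of the 9 windows, against 12.4% of 32851 windows of that length. The AP-1 site TGANTCA, which reads the same on both strands, occurred in 2 of the 9 windows, those of Srxn1 and Prdx1, against 7.81%. In the Prdx1 window 1 AP-1 match overlaps the antioxidant response element match. For NF-kB only 1 form of its site was searched, and it occurred in 0 of the 9 windows, against 1.63% of all windows. Other forms of the NF-kB site were not searched, so this count does not show that the windows lack such sites. The windows shown are those of the genes whose signals were read and whose window holds an antioxidant response element match, each 5′ to 3′ on the gene's strand. Capitals mark that match, which in these windows lies on the opposite strand, except in the first Srxn1 sequence, where they mark both AP-1 matches. They are Gclm at chr3:122245307-122245556 (plus strand), the second Txnrd1 window at chr10:82858956-82859205 (plus), Srxn1 at chr2:152105274-152105523 (plus) with its site just after the start at chr2:152105544-152105568, and Mafg at chr11:120633548-120633797 (minus).
Gclm: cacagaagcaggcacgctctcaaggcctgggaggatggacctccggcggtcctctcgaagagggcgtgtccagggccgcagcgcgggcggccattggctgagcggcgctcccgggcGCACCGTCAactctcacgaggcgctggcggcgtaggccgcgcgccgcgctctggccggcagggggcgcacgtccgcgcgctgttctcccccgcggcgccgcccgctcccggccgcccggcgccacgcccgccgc
Txnrd1: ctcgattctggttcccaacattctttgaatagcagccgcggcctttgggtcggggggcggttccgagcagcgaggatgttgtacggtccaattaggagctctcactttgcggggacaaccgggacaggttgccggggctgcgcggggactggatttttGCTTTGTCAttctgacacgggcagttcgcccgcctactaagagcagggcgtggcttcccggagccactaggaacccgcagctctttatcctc
Srxn1: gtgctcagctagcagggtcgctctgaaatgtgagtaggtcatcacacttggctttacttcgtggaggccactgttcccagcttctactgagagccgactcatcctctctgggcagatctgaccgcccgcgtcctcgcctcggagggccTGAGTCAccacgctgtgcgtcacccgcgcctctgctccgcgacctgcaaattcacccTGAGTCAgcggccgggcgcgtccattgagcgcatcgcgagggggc
Srxn1 site after the start: agtgggcaGCTAGGTCAgagtgaga
Mafg: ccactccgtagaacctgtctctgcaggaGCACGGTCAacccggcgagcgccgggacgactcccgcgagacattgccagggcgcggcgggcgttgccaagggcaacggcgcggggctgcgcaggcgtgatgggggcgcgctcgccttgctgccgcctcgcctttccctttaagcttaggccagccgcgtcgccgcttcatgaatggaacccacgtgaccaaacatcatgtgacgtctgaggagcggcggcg

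With the start base counted as 1, the first base of the match lay at -134 in Gclm, -92 in Txnrd1, 29 in Srxn1 and -222 in Mafg. The AP-1 matches of Srxn1 began at -102 and -45. A match is a run of letters in a window and not a measured binding site.

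**Figure D1:**
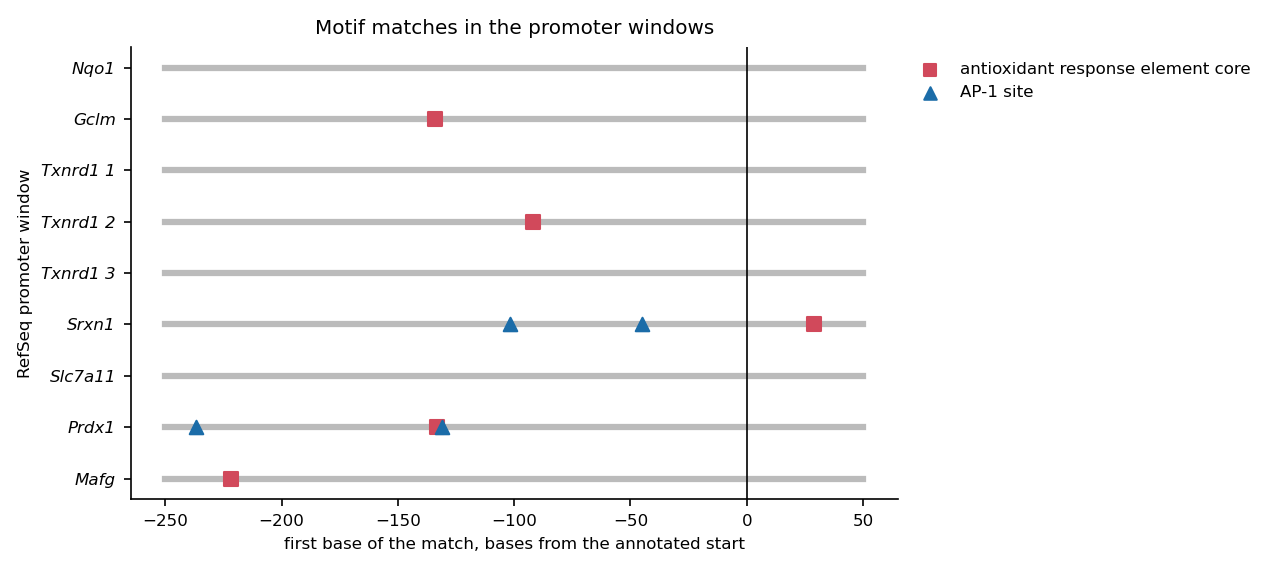
Position of motif matches in the 9 RefSeq promoter windows of 7 genes. The x axis is the first base of the match in bases from the annotated start, squares mark the antioxidant response element core and triangles the AP-1 site, and grey bars span each window. Antioxidant response element matches lie in 5 windows, AP-1 matches in 2.

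Hmox1, which encodes the inducible haem oxygenase that breaks haem down to biliverdin, iron and carbon monoxide, was the member that rose with AdOVA. Its signal was 5965 with AdOVA+TNFa and 5346 with AdOVA, against 2102 with TNFa and 2364 in untreated cells. Both AdOVA arrays lay above both arrays without virus, 2.26-fold in the pair without TNFa and 2.84-fold in the pair with it. The mean log2 difference was 1.34 with a standard error of 0.27 (95% interval 0.77 to 1.92, limma adjusted p = 0.0052). In that comparison 4.03% of the 14906 measured probe sets were called higher and 3.86% lower, and of the 15 member probe sets 1 rose and 0 fell. Being at least 2-fold higher in both pairs was met by the same 1 member and by 1.91% of all measured probe sets, and being that much lower by 0 members and 1.37%. The pair without TNFa lies within fluidics round 1. The call was lost with the fluidics round as a block, or without the AdOVA+TNFa array (adjusted p = 0.34 in each, log2 difference 1.32), with no filter on low signals (adjusted p = 0.47, log2 difference 1.34), with arrays set to equal medians (adjusted p = 0.054, log2 difference 1.19) and with each gene read as the mean of its probe sets (adjusted p = 0.087). Hmox1 is read by 1 probe set, so the gene-mean fit left its own values unchanged and differed in the features fitted with it. Outside AdIkBa-SR only the AdOVA+TNFa array was in round 2, so the round block and the fit without that array are 1 check here. An effect of the round cannot be told apart from that array. In the other alternatives run the call held, with adjusted p between 0.0024 and 0.043.

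In cells given AdIkBa-SR, Hmox1 had intermediate signals, 3777 with TNFa and 2829 without. These were 0.63-fold and 0.53-fold the signals with AdOVA, and 1.8-fold and 1.2-fold those without virus. The log2 difference from AdOVA was -0.79 with a standard error of 0.27 (95% interval -1.36 to -0.21) and did not pass (limma adjusted p = 0.09). From no virus it was 0.55 (95% interval -0.02 to 1.13, limma adjusted p = 0.94). Ordered by signal, the arrays ran AdOVA+TNFa, AdOVA, AdIkBa-SR+TNFa, AdIkBa-SR, untreated and TNFa. The gaps between AdOVA and AdIkBa-SR+TNFa and between AdIkBa-SR+TNFa and AdIkBa-SR were wider than the spread of a difference between single arrays, 0.39 on the log2 scale, and the other 3 gaps were not. That spread is a standard deviation taken from the fit, so a gap beyond it is not a called difference. For TNFa the mean log2 difference of Hmox1 was -0.01 (95% interval -0.58 to 0.57) in cells without virus and with AdOVA, and no change was called. In AdIkBa-SR cells, a single pair of arrays, it was 0.42 (95% interval -0.4 to 1.23), and no change was called there either.

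Macrophages and red-cell precursors also handle haem, and their markers are given beside the Hmox1 result. Of 8 measured macrophage markers 1 rose with AdOVA (Fcgr1) and 0 fell, where 4.03% and 3.86% of all measured probe sets were called. The median log2 difference was -0.41, against 0.07 for all genes, and uncalled values ran between -0.75 for Mertk and 0.73 for Cd14. With AdIkBa-SR relative to AdOVA 1 rose (Cd68, log2 1.11, limma adjusted p = 0.016) and 0 fell, where 3.47% and 3.39% of all were called. Both calls were lost with no filter on low signals, without the AdOVA+TNFa array and in the fit blocked by fluidics round. The summed signal over 10 genes was 27341 and 32337 with AdOVA, against 27605 and 25527 without virus. Much of that sum is Cd14, with 14207 and 16297 with AdOVA, against 9488 and 8866 without virus. Cd68 went the other way, with 1815 and 2008, against 2975 and 3218, so the sum does not stand for the list. Cd163 and C1qa were under the floor on every array. The 6 erythroid markers summed to 439 and 423 with AdOVA, against 313 and 323 without virus, with Alas2 and Car1 under the floor throughout and 0 of 4 measured genes called. The part of these cells in the Hmox1 result was not tested.

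Hmox1 was the only member whose brightest probe set spanned more than 1 log2 unit over the 6 arrays. The genes most like it in pattern, by Pearson correlation of log2 signal over those 6 arrays among 2376 candidates, were Procr (0.999), Olfml2b (0.992) and Ddit4 (0.99). Procr, the endothelial protein C receptor gene, had 8565 with AdOVA+TNFa and 7750 with AdOVA, against 2255 with TNFa and 2607 in untreated cells, and 4549 and 3300 with AdIkBa-SR with and without TNFa. These correlations describe 6 arrays, which are 3 virus states with and without TNFa.

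**Figure D2:**
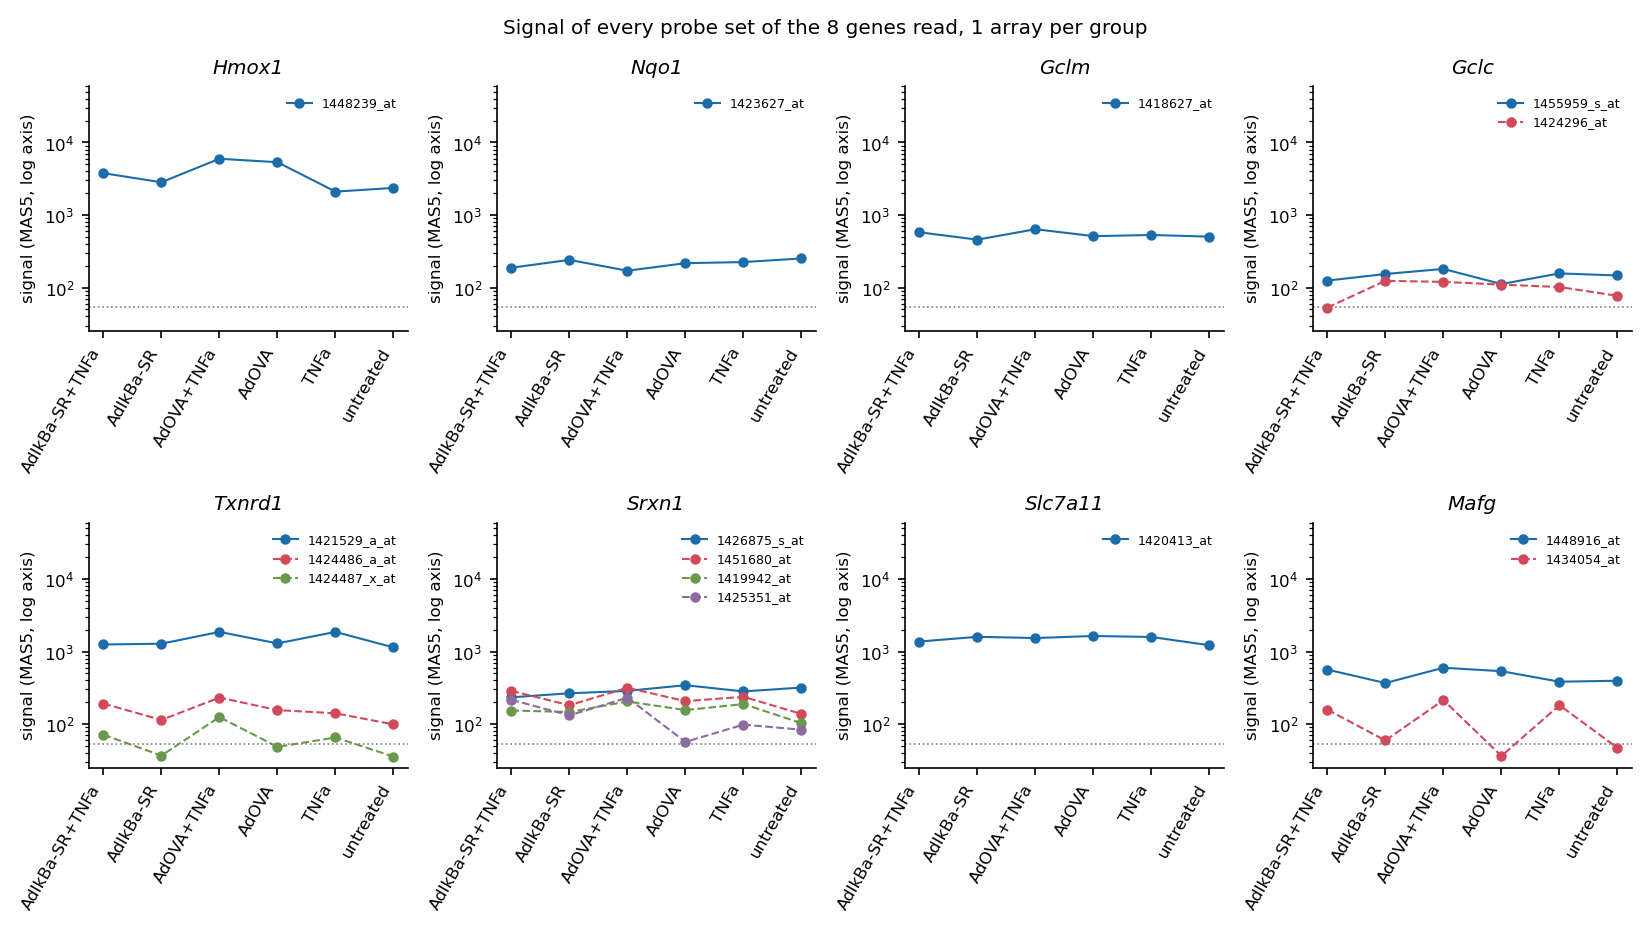
MAS5 signal (log axis) of all 15 probe sets of the 8 genes on each of the 6 arrays, with AdIkBa-SR+TNFa at the left and untreated at the right. Solid lines mark the brightest probe set of a gene, dashed lines its others, and the dotted line the floor of 53.5. Lines only join points of 1 probe set. Hmox1 is highest on both AdOVA arrays, and Mafg 1434054_at is higher on each TNFa array than on its partner.

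Mafg encodes a small MAF protein, the partner with which NRF2 binds DNA, and its 2 probe sets gave different patterns. The dimmer one, 1434054_at, had 214 with AdOVA+TNFa against 36.4 with AdOVA, and 182 with TNFa against 47.1 in untreated cells. Both arrays without TNFa were under the floor, so the differences are at least 4.01-fold and at least 3.41-fold. With AdIkBa-SR the signal was 158 with TNFa, against 59.5 without, a 2.66-fold difference (log2 1.41, standard error 0.45, limma adjusted p = 0.69). Every array with TNFa lay above every array without it. The fitted log2 difference for TNFa outside AdIkBa-SR cells was 1.89 with a standard error of 0.32 (95% interval 1.22 to 2.55, limma adjusted p = 0.04).

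This was the 1 member probe set of 15 that rose with TNFa, with 0 that fell, where limma called 0.0268% of all measured probe sets higher and 0% lower. At least 2-fold in both pairs was met by this member and by 0.134% of all measured probe sets, with 0 members and 0.168% of all that far lower. The log2 TNFa response in AdIkBa-SR cells minus that in the others was -0.47 (limma adjusted p = 1), so a difference between the responses was not detected, and 0% of all measured probe sets were called for it in either direction. The call held in the fit with no floor (adjusted p = 0.0088) and was lost in the other alternatives for it, where adjusted p ran between 0.051 and 0.99. Its log2 difference was 0.77 with the floor at the 60th percentile, a signal of 116.1, and between 1.59 and 1.89 in the others. The brighter probe set, 1448916_at, had 598 with AdOVA+TNFa against 536 with AdOVA, and 384 with TNFa against 396 in untreated cells (log2 0.06, limma adjusted p = 0.96). The 2 probe sets of Mafg therefore disagree on TNFa. The brighter one was higher with AdOVA than without virus, 1.35-fold without TNFa and 1.56-fold with it, which did not pass (log2 0.54, 95% interval 0.02 to 1.06, limma adjusted p = 0.2).

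Txnrd1 encodes cytosolic thioredoxin reductase, which uses NADPH to keep thioredoxin reduced, and Srxn1 encodes sulfiredoxin, which repairs over-oxidised peroxiredoxins. The brightest Txnrd1 probe set, 1421529_a_at, had 1866 with AdOVA+TNFa against 1295 with AdOVA, and 1864 with TNFa against 1140 in untreated cells. Both TNFa arrays outside AdIkBa-SR lay above all 4 other arrays, 1.44-fold and 1.64-fold over their partners, and the step down to the next array, AdOVA, was wider than the spread of a difference. The log2 difference was 0.62 with a standard error of 0.24 (95% interval 0.11 to 1.12) and did not pass after adjustment (limma adjusted p = 0.32). With AdIkBa-SR the signal was 1251 with TNFa, against 1282 without, a log2 difference of -0.04. The log2 TNFa response in AdIkBa-SR cells minus that in the others was -0.65 with a standard error of 0.42 (limma adjusted p = 1).

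The dimmer Txnrd1 probe sets were higher with TNFa in AdIkBa-SR cells as well. For 1424486_a_at the signal was 192 with AdIkBa-SR+TNFa against 114 with AdIkBa-SR, 232 with AdOVA+TNFa against 156 with AdOVA, and 141 with TNFa against 99.1 in untreated cells. TNFa arrays were higher in each of the 3 pairs, and the log2 difference outside AdIkBa-SR cells was 0.54 (limma adjusted p = 0.57). The same probe set was higher with AdOVA than without virus (log2 0.68, limma adjusted p = 0.21). Probe set 1424487_x_at had 125 with AdOVA+TNFa and 48.6 with AdOVA, and on 3 of the 6 arrays it was under the floor (log2 for TNFa 0.76, limma adjusted p = 0.25).

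Srxn1 was read by 4 probe sets, and they also differed among themselves. The brightest, 1426875_s_at, had 287 with AdOVA+TNFa against 344 with AdOVA, and 282 with TNFa against 319 in untreated cells (log2 -0.22, limma adjusted p = 0.82). Probe set 1451680_at had 287 with AdIkBa-SR+TNFa against 182 with AdIkBa-SR, 317 with AdOVA+TNFa against 207 with AdOVA, and 238 with TNFa against 138 in untreated cells. It was higher with TNFa in all 3 pairs, 1.53-fold with AdOVA and 1.73-fold without virus (log2 0.70, limma adjusted p = 0.36). Probe set 1419942_at had a log2 difference of 0.63 for TNFa (limma adjusted p = 0.5). Probe set 1425351_at had 231 with AdOVA+TNFa against 56.9 with AdOVA, a 4.05-fold difference, but 98.3 with TNFa against 83.8 in untreated cells, 1.17-fold (mean log2 1.12, limma adjusted p = 0.24). Of the 15 member probe sets 5 had an unadjusted limma p under 0.05 for a higher signal with TNFa, against 5.25% of all measured probe sets, and 0 for a lower one, against 5.84%. These 5 come from 3 genes, with 2 of Txnrd1, 2 of Srxn1 and 1 of Mafg, and probe sets of a gene share its transcripts.

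**Figure D3:**
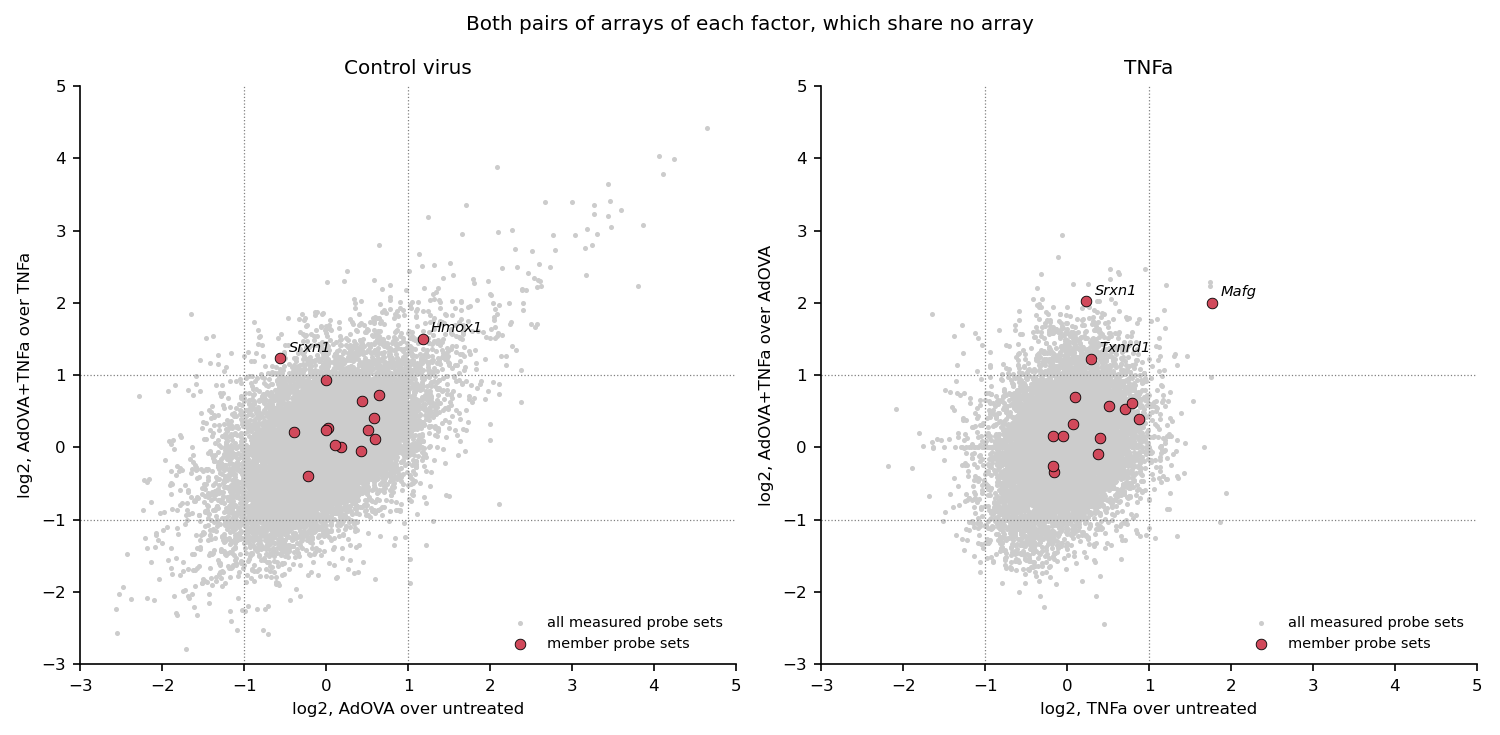
Log2 difference of the AdOVA pair with TNFa against the pair without (left), and of the TNFa pair with AdOVA against the pair without virus (right). Grey points are all 14906 measured probe sets, red points the 15 member probe sets, dotted lines mark 2-fold, and members at least 2-fold apart in a pair are named. Past 2-fold higher in both pairs lie Hmox1 on the left and Mafg 1434054_at on the right.

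Glutathione synthesis was read through Gclm and Gclc, the modifier and catalytic subunits of glutamate-cysteine ligase, and Slc7a11, the cystine importer that supplies it. Gclm had 579 with AdIkBa-SR+TNFa against 458 with AdIkBa-SR, 638 with AdOVA+TNFa against 512 with AdOVA, and 531 with TNFa against 504 in untreated cells. Its signal was higher with TNFa in each of the 3 pairs, and the log2 difference outside AdIkBa-SR cells was 0.20 (95% interval -0.31 to 0.71, limma adjusted p = 0.82). For AdOVA over no virus it was 0.14 (95% interval -0.37 to 0.66, limma adjusted p = 0.77).

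The brighter Gclc probe set, 1455959_s_at, had 181 with AdOVA+TNFa against 112 with AdOVA, and 157 with TNFa against 147 in untreated cells (log2 0.39, limma adjusted p = 0.72). With AdIkBa-SR it had 125 with TNFa, against 154 without. The dimmer, 1424296_at, was under the floor with AdIkBa-SR+TNFa (53.1), against 124 with AdIkBa-SR, so it was at least 2.33-fold lower (log2 -1.22, limma adjusted p = 0.77). Its other 4 arrays lay between 77.1 and 120. The log2 TNFa response of this probe set in AdIkBa-SR cells minus that in the others was -1.49 and did not pass (limma adjusted p = 0.97).

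Slc7a11 varied least of the 8 genes across the arrays. It had 1373 and 1596 with AdIkBa-SR (with and without TNFa), 1535 and 1638 with AdOVA, and 1588 with TNFa against 1220 in untreated cells. The highest array was 1.34-fold the lowest, and no gap between neighbours in the order was wider than the spread of a difference. The log2 difference was 0.19 for AdOVA over no virus (95% interval -0.33 to 0.71) and 0.14 for TNFa (95% interval -0.38 to 0.66). Neither passed. These intervals are not adjusted for the number of probe sets and are not a limit of detection, so larger changes could also go uncalled with 6 arrays.

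Nqo1 encodes a quinone reductase and is widely used as a readout of NRF2. It had 188 with AdIkBa-SR+TNFa against 241 with AdIkBa-SR, 171 with AdOVA+TNFa against 217 with AdOVA, and 225 with TNFa against 252 in untreated cells. Each TNFa array was lower than its partner, 0.78-fold, 0.79-fold and 0.89-fold, but no gap in the order of arrays was wider than the spread of a difference. The log2 difference was -0.25 for TNFa (95% interval -0.87 to 0.37, limma adjusted p = 0.81) and -0.31 for AdOVA over no virus (95% interval -0.93 to 0.31, limma adjusted p = 0.58). Its order of arrays differed from that of Hmox1, which was highest with AdOVA+TNFa, where Nqo1 was lowest.

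**Figure D4:**
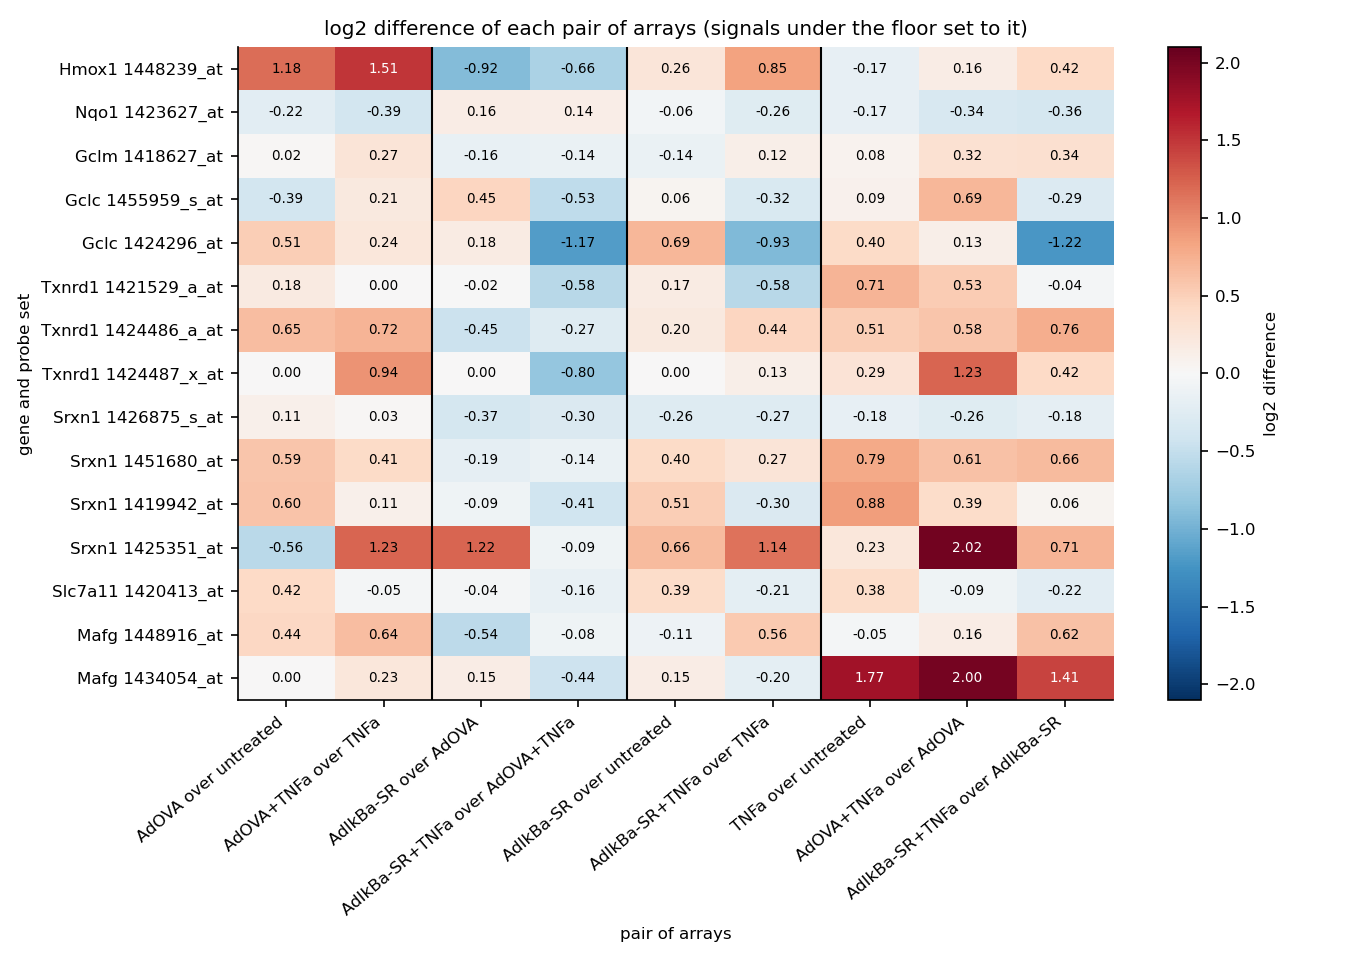
Log2 difference in each of 9 pairs of arrays (columns) for the 15 member probe sets (rows), red for higher and blue for lower in the group named first, with the value in each cell and signals under the floor set to it. Vertical lines separate the comparisons. Hmox1 is red in both AdOVA columns and blue in both columns of AdIkBa-SR over AdOVA, and Mafg 1434054_at is red in all 3 TNFa columns.

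Across the 15 member probe sets, 13 had a positive mean log2 difference for AdOVA over no virus (86.7%, against 54.7% of all measured probe sets), with a median of 0.34, against 0.06 for all. With arrays set to equal medians, these medians were 0.18 for the members and -0.08 for all. For TNFa outside AdIkBa-SR cells 12 were positive (80%, against 55.4% of all), with a median of 0.39, against 0.04 for all. Read by gene instead, from the brightest probe set of each of the 8, the medians were 0.12 for AdOVA and 0.10 for TNFa, against 0.07 and 0.02 for all genes. The probe sets beyond the brightest belong to Txnrd1, Srxn1, Mafg and Gclc.

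AdIkBa-SR over AdOVA uses the same AdOVA arrays as the comparison above, so its values are given side by side with those and not as a separate finding. Of the 15 member probe sets 0 rose and 0 fell by limma, where 3.47% of all measured probe sets were called higher and 3.39% lower. At an unadjusted p under 0.05, 0 were higher, against 10.2% of all, and 1 was lower (Hmox1), against 12.7%. The median log2 difference of the members was -0.25, against -0.09 for all, and with equal medians it was -0.06, against 0.07. For AdIkBa-SR over no virus 0 rose and 0 fell, where 0.0335% and 0% of all were called. At an unadjusted p under 0.05, 1 was higher, Srxn1 1425351_at (log2 0.90, limma adjusted p = 0.86), against 2.89% of all, and 0 were lower, against 2.58%. For TNFa in AdIkBa-SR cells, a single pair of arrays, limma called 0 members and 0% of all in either direction. With no filter on low signals it called 139 of 22626 probe sets, and with no floor 2, again with 0 members. At an unadjusted p under 0.05, 1 was higher (Mafg 1434054_at), against 3.37% of all, and 1 lower (Gclc 1424296_at), against 1.73%. These were also the 1 member at least 2-fold higher and the 1 at least 2-fold lower in that pair, against 2.03% and 0.832% of all.

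The regulators of the programme were read from a list of 13 genes, 12 of them measured. The calls given here and for the lists that follow were all lost, with 0 of all probe sets called, with no filter on low signals, without the AdOVA+TNFa array and in the fit blocked by fluidics round. Over all measured probe sets, 4.03% were called higher and 3.86% lower with AdOVA, and 3.47% and 3.39% with AdIkBa-SR relative to AdOVA, and the counts of each list stand against these shares. Both comparisons use the same AdOVA arrays, so opposite calls of a gene in them are not separate findings. With AdOVA 2 of the 12 regulators rose and 0 fell. Sqstm1, whose product p62 binds KEAP1, had 4599 and 3766 with AdOVA (with and without TNFa), against 2374 and 1795 without virus (log2 1.01, standard error 0.26, limma adjusted p = 0.022). With AdIkBa-SR it had 2521 and 1910 and fell relative to AdOVA (log2 -0.92, standard error 0.26, limma adjusted p = 0.038). Fosl1, an AP-1 subunit, had 161 and 112 with AdOVA, against 53.4 and 59.3 without virus (log2 1.25, limma adjusted p = 0.016, with the TNFa array just under the floor). Nfe2l2 itself had 1204 and 1296 with AdOVA, against 1402 and 1296 without virus (log2 -0.11, limma adjusted p = 0.82). Keap1 had a log2 difference of 0.37 (limma adjusted p = 0.42) and Bach1 one of -0.16 (limma adjusted p = 0.75). RNA levels of these genes do not measure the activity of their proteins.

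Thioredoxin and glutathione reductases both draw on NADPH. In the NADPH supply list, 0 of 10 measured genes rose and 2 fell with AdOVA, where 3.86% of all probe sets were called lower, with a median log2 difference of -0.47, against 0.07 for all genes. The list and its median also include the quinone reductase genes Nqo1 (log2 -0.31) and Nqo2 (log2 -0.51), which do not supply NADPH. Idh1, the cytosolic isocitrate dehydrogenase that makes NADPH, had 294 and 436 with AdOVA, against 1470 and 1543 without virus (log2 -2.07, standard error 0.24, limma adjusted p = 3.2e-05). Taldo1, transaldolase of the pentose phosphate pathway, had 564 and 718 with AdOVA, against 1111 and 1340 without virus (log2 -0.94, limma adjusted p = 0.02). Both rose with AdIkBa-SR relative to AdOVA, by 1.31 for Idh1 (limma adjusted p = 0.0033) and 0.92 for Taldo1 (limma adjusted p = 0.024) on the log2 scale. Relative to no virus, their log2 differences with AdIkBa-SR were -0.77 and -0.02 and were not called.

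Of 20 measured glutathione genes 0 rose and 1 fell with AdOVA, near the 3.86% of all probe sets called lower, with a median of -0.04, against 0.07 for all genes. That gene was Gsto1, an omega-class glutathione transferase, with 400 and 516 with AdOVA, against 1055 and 1537 without virus (log2 -1.49, limma adjusted p = 0.00076). Relative to AdOVA, Gsto1 and the microsomal transferase Mgst3 rose with AdIkBa-SR, by 0.94 and 1.13 on the log2 scale (limma adjusted p = 0.022 and 0.043). Mgst3 was under the floor on the AdOVA+TNFa array (45.9), so its difference rests on the floor. Among 14 thioredoxin and peroxiredoxin genes 0 rose and 1 fell, Msrb1, which reduces oxidised methionine, with 880 and 1586 with AdOVA, against 1977 and 3277 without virus (log2 -1.11, limma adjusted p = 0.011). It rose with AdIkBa-SR relative to AdOVA (log2 1.31, limma adjusted p = 0.0039). None of the 4 measured genes of superoxide and hydrogen peroxide removal was called, with a median of -0.24.

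Of 13 haem and iron genes Hmox1 rose and Tfrc, the transferrin receptor gene, fell with AdOVA, with 307 and 324, against 923 and 657 without virus (log2 -1.30, limma adjusted p = 0.0035). The list of amino-acid stress genes is named for ATF4 and includes Atf4 itself and Slc7a11. Of its 12 measured genes 1 rose with AdOVA, Ddit4 (log2 1.65, limma adjusted p = 0.00035), and 1 fell, Phgdh (fitted log2 -1.33, limma adjusted p = 0.035). Phgdh had 166 with AdOVA+TNFa and was under the floor with AdOVA (29), against 230 and 244 without virus, so the fitted value rests on the floor. Relative to AdOVA, Phgdh and Psat1, both of serine synthesis, rose with AdIkBa-SR (limma adjusted p = 0.049 and 0.035), each with its AdOVA array under the floor, and Ddit4 fell (limma adjusted p = 0.0076). Of 9 genes of NADPH oxidase and nitric oxide 2 rose with AdOVA. Nos2, the inducible nitric oxide synthase, had 3444 and 640 with AdOVA, against 233 and 151 without virus (log2 2.98, limma adjusted p = 1.2e-05), and Gch1, which makes its cofactor, had a log2 difference of 0.87 (limma adjusted p = 0.037). With AdIkBa-SR, Nos2 had 634 and 213 and fell relative to AdOVA (log2 -2.01, limma adjusted p = 0.001). Relative to no virus, its log2 difference with AdIkBa-SR was 0.97 and was not called. In these 8 lists 0 genes were called by limma for AdIkBa-SR over no virus, for TNFa or for TNFa in AdIkBa-SR cells.

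**Figure D5:**
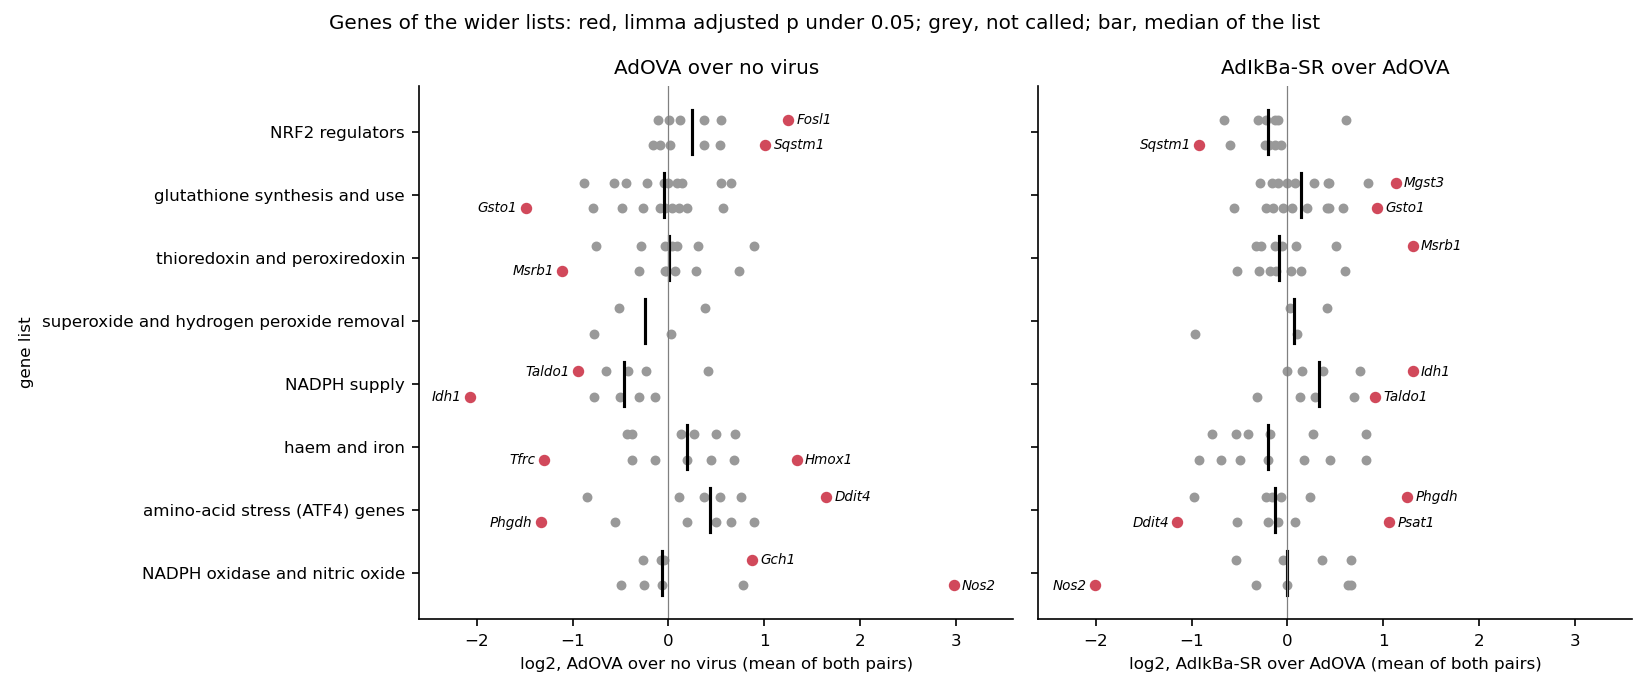
Log2 difference (x axis, mean of both pairs) of the measured genes of 8 lists (y axis), for AdOVA over no virus (left) and AdIkBa-SR over AdOVA (right). Each point is a gene read from its brightest probe set, red where the limma adjusted p was under 0.05, and black bars are list medians. Idh1 lies at -2.07 and Nos2 at 2.98 on the left, and both lie on the other side of 0 on the right. Both panels use the same AdOVA arrays, so they are not separate findings.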

How the data were processed

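RNA of 6 groups of mouse dendritic cells was measured on 1 array each. Titles gave the groups. The authors deposited 1 microarray intensity per probe set on a linear scale, and the submitters' processing notes name MAS5 (version not given in the sources used here). The 2% trimmed mean was 200.1 on every array, so signals were not rescaled. Hybridization dates and wash settings were read from the array headers. Arrays with the same hybridization date were taken as 1 fluidics round, and the round numbers follow the sorted date text.

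Signals under 53.5, the 40th percentile of non-control signals, were set to that floor and log2 was taken. Probe sets above it on at least 2 arrays were tested (14906 of 22626 non-control). limma 3.58.1 in R 4.3.3 (lmFit, eBayes with a trend) was fitted with 5 coefficients to all 6 arrays: 3 virus states, 1 TNFa response for the AdOVA and virus-free arrays and 1 for the AdIkBa-SR arrays. This leaves 1 residual degree of freedom, which measures how far the AdOVA and virus-free TNFa responses lie apart. Such a spread does not cover cultures or animals, and it is also applied to AdIkBa-SR. Calls were made at 0.05 on p-values adjusted by Benjamini and Hochberg over all measured probe sets, and a change of at least 2-fold in both pairs of arrays, which share no array, was counted beside them. On simulated data with the same spread the fit made more false calls than its threshold states in several draws. The brightest probe set stands for a gene, and all probe sets with 1 symbol are given. Genes named beyond the members were all called genes of the 8 pathway lists, Nfe2l2, Keap1, Bach1 and the 3 genes most like Hmox1. Nqo2, which was not called, was named as well. Of the lists of cell markers only some genes are named, chosen after their values were seen. Members and lists were chosen with earlier results of these data known. Promoters were searched in Python 3.11.15 for 3 motifs. Alternatives changed the floor, filter, scaling, variance model, fit, block, arrays and reading of a gene. The number of arrays limits the precision.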

Additional observations from a re-analysis of the deposited data

How the results depend on the processing

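The count of members called for AdOVA over no virus was 1 and came to 0 with no filter on low signals (Hmox1 adjusted p = 0.47, log2 1.34), with arrays scaled to equal medians, without the AdOVA+TNFa array and in the fit blocked by fluidics round. Hmox1 stayed positive in every alternative run, and its call was also lost when each gene was read as the mean over its probe sets (adjusted p = 0.087). As Hmox1 has 1 probe set, that reading left its own values unchanged. The count for TNFa was 1 and came to 0 with the floor at the 60th percentile, no filter, equal medians, quantile normalization, eBayes without the trend, the additive fit, the round block, and without the AdOVA+TNFa or the AdIkBa-SR array. The causes were not tested, beyond that some of these fits hold fewer arrays or another set of probe sets. The counts for AdIkBa-SR over AdOVA, AdIkBa-SR over no virus and TNFa in AdIkBa-SR cells stayed 0 in every alternative run. With each of the 8 genes read once, by its brightest probe set or mean, 408 values were recomputed and 403 kept their side of the threshold, nearly all of them never called. The 1 called among them, Hmox1 with AdOVA, lost its call in 5 of them, and 23 uncalled values turned sign. Of those 5, the round block and the fit without the AdOVA+TNFa array amount to 1 check for this comparison. Over all measured probe sets, the calls for AdOVA over no virus numbered 1175, against 655 with equal medians, 284 after quantile normalization, 605 with the higher floor, 492 in the additive fit, and 0 with no filter, with the round block or without the AdOVA+TNFa array. For AdIkBa-SR over AdOVA they numbered 1023, against 640, 156, 523, 366 and 0 in the same order. For TNFa in AdIkBa-SR cells they numbered 0, against 139 with no filter and 2 with no floor. Read as gene means, 33 of 8948 genes were called for AdOVA. The additive fits give no TNFa response of AdIkBa-SR cells. No paired analysis was possible because each group has 1 array, so no replicate number pairs samples, and the pairs named here are arrays that differ in 1 factor. Signals near the floor, such as those of Mafg 1434054_at without TNFa, are bounds.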

Other observations

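The AdOVA+TNFa array was the highest of the 6 for 11 of the 15 member probe sets, against 28.6% of all measured probe sets. With arrays scaled to equal medians it was the highest for 4 of the 15, against 16.8%. The untreated array was the lowest for 6 of the 15 under both scalings, against 13.2% of all as deposited and 13% with equal medians. Its part in the member medians for AdOVA and TNFa was not tested.

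Granulocytes release oxidants through NADPH oxidase, and markers of these cells were read as a list. Their summed signal over 10 genes was 33719 with AdIkBa-SR+TNFa against 29652 with AdIkBa-SR, 17904 with AdOVA+TNFa against 25700 with AdOVA, and 18068 with TNFa against 27367 in untreated cells. This sum was lower with TNFa in the 2 pairs without AdIkBa-SR and higher in the pair with it. Bright genes weigh most in it. For TNFa outside AdIkBa-SR cells every gene of the list but Ltf (log2 0.2) had a negative log2 difference. The list median was -0.61, against 0.02 for all genes. Of the 10 genes 0 rose and 0 fell, where 0.0268% and 0% of all measured probe sets were called. With AdOVA, S100a9 had 2618 with TNFa against 7660 without, while Ltf had 559 against 387. In the AdIkBa-SR pair the genes differed in direction, with a median log2 difference of 0.05, against 0 for all genes. There Lcn2 had 8688 with TNFa against 6330 without, while S100a9 had 8866 against 9746. Of these 10 genes 3 rose and 0 fell with AdIkBa-SR relative to AdOVA by limma, where 3.47% of all measured probe sets were called higher, with a median log2 difference of 0.84, against -0.10 for all genes. These calls were lost with no filter on low signals, without the AdOVA+TNFa array and in the fit blocked by fluidics round. Summed signals carry no test.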
